A study of Mus musculus with 32 samples.

Results

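The mouse genome annotation used here (GENCODE M21) holds 53 protein-coding genes whose symbol is Krt followed by a number and at most 1 letter, and these keratin genes were followed through total RNA-seq of early mouse embryos, among 55385 genes in each library and 21897 protein-coding genes. The rule reads the gene symbol and no measured value, and keratin-associated proteins (Krtap) were left out. Embryos came from B6D2F1/J females fertilised in vitro by B6D2F1/J males, wild type, both parents 6 to 8 weeks old. There were 8 groups of 2 libraries each. Zygotes, early 2-cell embryos and late 2-cell embryos were compared between DMSO and 10 µM A-485, a catalytic inhibitor of the histone acetyltransferases CBP and p300 that was present from 4 to 20 h after fertilisation (hpi) and then washed off. The late 2-cell embryos of this experiment were therefore collected after the drug had been removed. In a separate experiment, late 2-cell embryos were compared between DMSO and 50 nM trichostatin A (TSA), an inhibitor of histone deacetylases, present from 8 to 28 hpi. Nothing in the labels says that the 2 libraries of a group came from separate fertilisations, so p-values measure the spread between these libraries, which may be technical.

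Keratins are the intermediate filament proteins of epithelial cells, and a filament is built from pairs of an acidic type I and a basic type II keratin. Type I genes lie together in one cluster on chromosome 11 and type II genes in another on chromosome 15, with Krt18 as the type I gene that sits beside its type II partner Krt8. In the mouse embryo KRT8 and KRT18, joined by KRT7 and KRT19, are known as keratins of the trophectoderm, the outer epithelium of the blastocyst, while most other family members are known from epidermis, cornea, oral epithelium, hair and nail. By these roles the 53 members were sorted into 4 embryonic keratins (Krt7, Krt8, Krt18, Krt19), 2 other simple epithelial keratins (Krt20, Krt23), 20 keratins of stratified epithelia, 8 of the sheaths around the hair, 16 of the hair shaft and 3 left unclassified (Krt42, Krt90, Krt222). The members span 1.04 Mb on chromosome 11 (27 genes, 26 of them type I) and 0.685 Mb on chromosome 15 (25 type II genes and Krt18).

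The 300 bases around the annotated start site (250 before, 50 after; RefSeq, GRCm38.p6) are given below for the embryonic keratins Krt8, Krt18 and Krt7 and for Krt28, which are 4 of the 10 keratin genes called in a treatment comparison, together with the middle 300 bases of an open chromatin peak inside Krt28 to which the results return. Each is written 5′ to 3′ on the strand of its gene. Capitals mark every match, on either strand, to TATAAA (the core of a TATA box), GGGCGG (a GC box), TGANTCA (an AP-1 site) or AAGGTCA (a site of monomeric nuclear receptors). The capitals in Krt8 hold 2 overlapping matches to TATAAA, 1 on each strand. The table holds no entry for Krt19.
Krt8, chr15:102004293-102004592, minus strand: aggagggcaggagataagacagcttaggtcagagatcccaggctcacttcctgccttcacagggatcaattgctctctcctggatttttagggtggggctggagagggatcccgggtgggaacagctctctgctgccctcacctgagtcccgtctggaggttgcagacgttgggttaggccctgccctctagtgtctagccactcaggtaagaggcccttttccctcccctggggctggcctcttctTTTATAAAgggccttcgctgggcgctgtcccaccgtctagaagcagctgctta
Krt18, chr15:102027966-102028265, plus strand: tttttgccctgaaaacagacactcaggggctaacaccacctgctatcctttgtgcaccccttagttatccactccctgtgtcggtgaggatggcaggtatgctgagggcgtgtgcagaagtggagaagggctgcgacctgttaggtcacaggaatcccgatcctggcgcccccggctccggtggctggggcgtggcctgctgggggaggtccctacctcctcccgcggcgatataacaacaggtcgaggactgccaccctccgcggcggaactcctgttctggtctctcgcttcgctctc
Krt7, chr15:101412153-101412452, plus strand: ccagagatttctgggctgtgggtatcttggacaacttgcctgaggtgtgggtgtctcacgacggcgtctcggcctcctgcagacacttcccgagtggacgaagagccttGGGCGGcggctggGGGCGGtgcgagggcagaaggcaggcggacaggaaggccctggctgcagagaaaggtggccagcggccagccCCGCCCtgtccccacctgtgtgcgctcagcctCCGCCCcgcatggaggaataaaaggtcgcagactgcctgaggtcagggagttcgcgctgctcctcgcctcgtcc
Krt28, chr11:99374854-99375153, minus strand: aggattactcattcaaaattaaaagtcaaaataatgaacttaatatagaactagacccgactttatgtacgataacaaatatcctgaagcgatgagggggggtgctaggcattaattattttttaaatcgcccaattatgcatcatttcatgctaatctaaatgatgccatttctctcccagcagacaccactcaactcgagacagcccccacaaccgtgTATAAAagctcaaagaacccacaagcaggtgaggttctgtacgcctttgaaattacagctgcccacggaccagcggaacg
Krt28 peak, chr11:99373052-99373351, minus strand: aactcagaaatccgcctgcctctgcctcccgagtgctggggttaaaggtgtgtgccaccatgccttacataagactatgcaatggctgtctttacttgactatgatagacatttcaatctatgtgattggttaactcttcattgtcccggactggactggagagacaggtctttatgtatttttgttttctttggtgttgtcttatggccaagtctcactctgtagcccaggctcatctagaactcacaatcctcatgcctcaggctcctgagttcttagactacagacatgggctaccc
The Krt8 and Krt28 windows held TATAAA, the Krt7 window held GGGCGG 4 times, and the Krt18 window and the Krt28 peak held none of the 4 motifs. A start-site window was found for 36 of the 53 keratin genes. TATAAA was present in 19 of these 36 (52.8%), against 13.6% of all 32817 windows in the same table, and GGGCGG in 2 of 36 (5.56%; Krt7 and Krt75), against 35.6% of all windows. TGANTCA and AAGGTCA were each in 1 keratin window (2.78%; Krt13 and Krt20), against 7.81% and 4.72% of all windows. Each keratin gene was counted with 1 window, while every distinct window of a gene entered the share of all windows, so the shares are not of the same unit. These are matches of letters, and neighbouring keratin genes are duplicates of one another, so the 36 windows are not independent.

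Library depth was 13206163 to 32585987 expected counts (RSEM's estimates of reads per gene). Replicates differed by more than sampling noise in every group (chi-square per degree of freedom of at least 8.99), which does not show that they came from separate embryos. All 8 of 8 oocyte and zygote markers were at 1 FPKM or more in every library (FPKM, the authors' read level scaled to gene length and library size). The summed FPKM of 6 genes that mark the 2-cell stage was 414 to 417 in early 2-cell DMSO embryos and 22.7 to 23.5 under A-485. The summed FPKM over all genes was not the same in all groups (1287260 and 1438064 in late 2-cell DMSO against 1849898 and 2045551 in late 2-cell A-485), so folds were taken from counts scaled by TMM and not from FPKM. In pooled embryos, fewer contributing cells and less RNA per cell cannot be told apart.

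Most keratin genes were silent or nearly so. Of the 53, 4 had no count in any library (Krt14, Krt31, Krt39, Krt40), and 20 reached 1 FPKM in at least 1 of 16 libraries. Krt14, with Krt5 the defining pair of basal keratinocytes, was thus undetected, and Krt5 had 5 counts over all libraries. In single libraries, 4 to 13 keratin genes (7.55% to 24.5%) were at 1 FPKM or more. The share over all 21897 protein-coding genes was 43.5% to 57.3%. The highest member was Krt84, a type II keratin sorted here into the hair shaft class. It averaged 51.1 FPKM over the 16 libraries. Next were Krt18 (5.09), Krt8 (3.66), the corneal keratin Krt12 (3.51), and the hair follicle inner sheath keratins Krt73 (2.68) and Krt72 (2.18).

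Krt84 alone made up 44.5% to 80.5% of the keratin FPKM of a library, and its RNA was abundant in every group. It stood at 37.1 and 38.4 FPKM in DMSO zygotes, 68.5 and 61.4 in early 2-cell DMSO embryos, and 36.2 and 40.5 in late 2-cell DMSO embryos, with 854 to 1610 counts in each of the 16 libraries. Between DMSO zygotes and early 2-cell embryos its level relative to other RNA was higher by 0.54 ± 0.14 on the log2 scale (SE, edgeR's quasi-likelihood test, adjusted p = 0.00694), which is under the 2-fold change a call required. No treatment moved it past that line. Its log2 change was -0.06 in A-485 zygotes, 0.11 in A-485 early 2-cell embryos, 0.25 in A-485 late 2-cell embryos and 0.10 under TSA. The other 15 hair shaft keratins did not share this level: only Krt88 also passed 1 FPKM in any library. The stacked plot of keratin RNA shows how far Krt84 dominates and where the embryonic keratins enter.

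**Figure D1:**
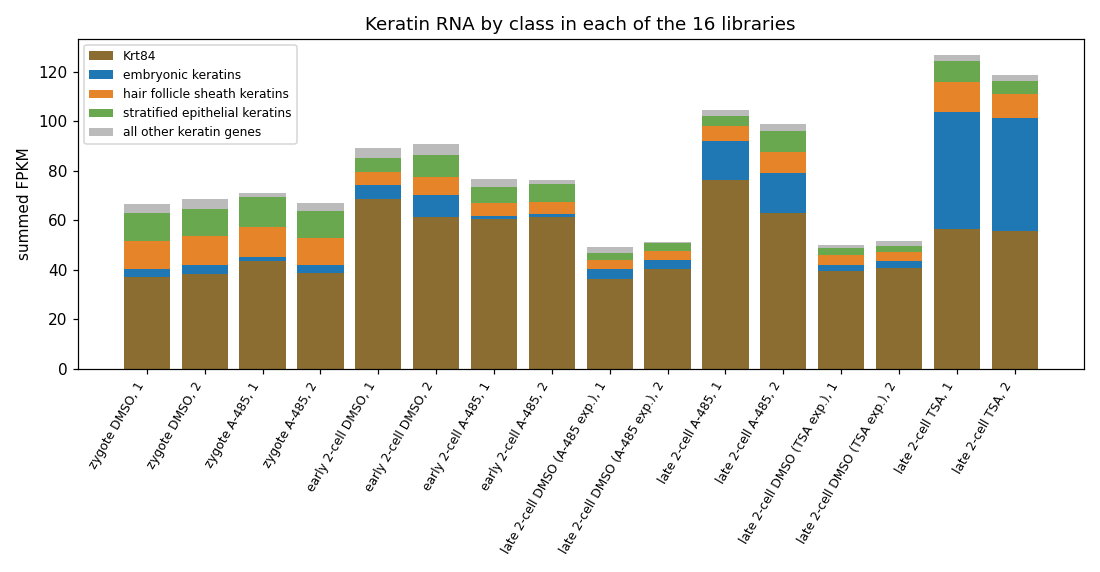
Summed FPKM of the keratin genes in each of the 16 libraries, stacked by class, with Krt84 drawn apart from the other hair shaft keratins. Krt84 is the largest part of every bar, and the embryonic keratins (Krt7, Krt8, Krt18, Krt19) rise from 4.71% and 5.39% of keratin FPKM in the DMSO libraries of the TSA experiment to 37.1% and 38.6% in the TSA libraries.

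The first question was how keratin RNA changed with stage in control embryos. Labels of the early 2-cell libraries are written differently from those of the zygote and late 2-cell libraries of the A-485 experiment. They do not say whether the stages were prepared together, so stage and preparation cannot be told apart in these comparisons. A call here needed an adjusted p under 0.05, a change of at least 2-fold, and a mean of at least 1 FPKM in one of the groups. Between DMSO zygotes and early 2-cell embryos, 1 of 22 tested keratin genes rose and 2 fell, 13.6% of those tested, where 11.2% of all 20106 genes tested were called higher and 14.9% lower. The median log2 change was 0.07 over the keratin genes and 0.08 over all genes tested.

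Krt18 was the keratin that rose. It had 1 and 0 counts in the DMSO zygotes (0.03 and 0 FPKM) and 65 and 157 counts in early 2-cell DMSO embryos (2.44 and 5.77 FPKM). Both early 2-cell libraries were above both zygotes, by a ratio of 323 (95% counting interval 57.3 to 12802, which covers counting error only; adjusted p = 4.22e-06). Its partner Krt8 did not follow. Krt8 was already at 3.21 and 3.41 FPKM in the zygotes and at 2.03 and 2.95 in early 2-cell embryos, a log2 difference of -0.32 ± 0.31 (adjusted p = 0.424). The zygote thus held RNA of the type II member of the pair with almost none of the type I member, and the FPKM ratio of Krt18 to Krt8 moved from 0.0093 and 0 in zygotes to 1.20 and 1.96 in early 2-cell embryos. Krt7 and Krt19 were low, at 0.19 and 0.01 and at 0 and 0 FPKM in zygotes, and at 0.73 and 0.17 and at 0.52 and 0 in early 2-cell embryos.

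The keratins that fell are both known from stratified or follicular epithelia. Krt73 went from 5.68 and 6.85 FPKM to 1.72 and 2.29 (log2 change -1.55 ± 0.26, adjusted p = 0.000271), and Krt76, a keratin of oral epithelium, from 1.75 and 1.77 to 0.42 and 0.50 (-1.85 ± 0.45, adjusted p = 0.0038). When libraries were scaled to the RNA of the 13 mitochondrial protein genes instead, the median of all expressed genes shifted from -0.12 to -1.45 and the count of keratins that fell went from 2 to 6, with 1 still rising. The members added by that scaling were Krt8, Krt12, Krt72 and Krt88.

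From early to late 2-cell DMSO embryos no keratin gene was called higher and 3 of 22 were called lower (13.6%), where 15.9% of all genes were called higher and 8.92% lower. No keratin was called higher by DESeq2 either, and 4 of the 22 had an unadjusted p under 0.05. The keratin median was -1.21 on the log2 scale against -0.02 over all genes tested. Krt12 fell from 3.18 and 5.34 FPKM to 1.10 and 1.10 (-1.95 ± 0.41, adjusted p = 0.00258). Krt88, a hair shaft keratin gene, fell from 2.84 and 2.45 FPKM to 0.25 and 0.07 (-3.94 ± 0.95, adjusted p = 0.00594). Krt73 fell again, to 0.79 and 0.61 FPKM (-1.51 ± 0.49, adjusted p = 0.0302). The Krt73 call was lost without replicate 2 of the early 2-cell DMSO group (-1.32, adjusted p = 0.159) or without replicate 2 of the late 2-cell DMSO group (-1.29, adjusted p = 0.101). Without early 2-cell DMSO replicate 1, 5 keratins were called lower, Krt18 and Krt80 among them. Krt12 overlaps the antisense gene A830036E02Rik, which had 436 counts over the 16 libraries. Krt80 overlaps the antisense gene Gm35853, which had 2082 counts, against 601 of Krt80 itself. The strand setting used for counting is not given in the sources used here.

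Krt28, an inner root sheath keratin, went the other way between zygotes and early 2-cell embryos. It had 0 and 5 counts in DMSO zygotes, 32 and 23 in early 2-cell DMSO embryos and 52 and 42 in late 2-cell DMSO embryos. In FPKM this was 0 and 0.12, then 1.04 and 0.73, then 1.58 and 1.53. The early 2-cell mean stayed under 1 FPKM, so the change from the zygote (log2 3.91 ± 1.16, adjusted p = 0.0136) did not meet the rule for a call. From early to late 2-cell embryos Krt28 was not called either, and edgeR's unadjusted p was not under 0.05.

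The DMSO late 2-cell groups of the A-485 and TSA experiments are separate controls, and keratin levels between them were compared as well. None of 21 keratin genes tested was called in edgeR, where 1.19% of all genes were called higher and 0.136% lower in the TSA experiment; DESeq2 called none, and 1 keratin (Krt84, log2 difference -0.32 ± 0.14) had an unadjusted p under 0.05. Krt8 was at 1.58 and 2.07 FPKM in the first control group and 0.87 and 1.05 in the second.

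**Figure D2:**
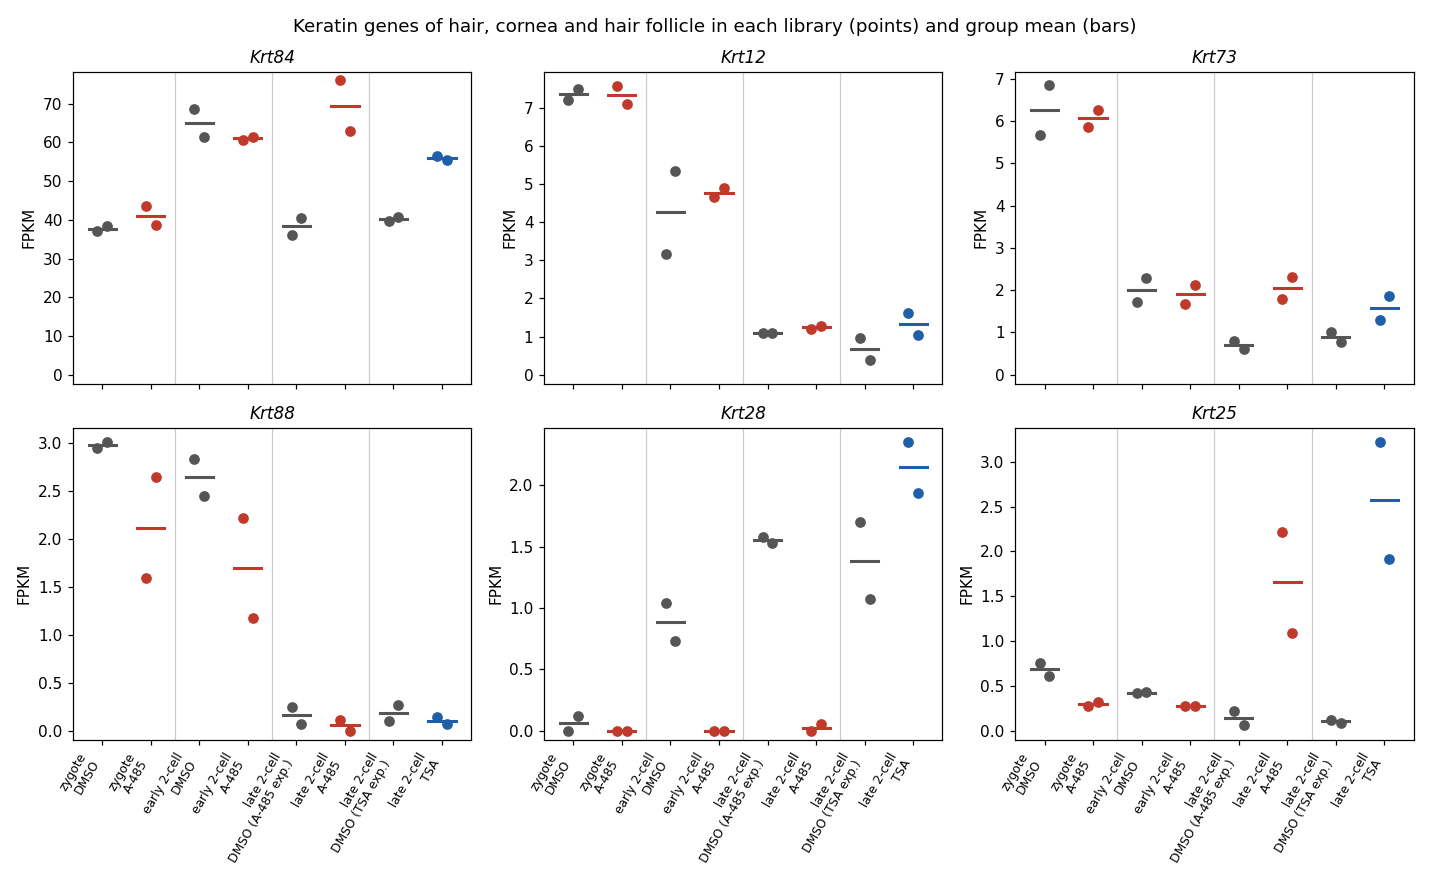
FPKM (linear axes) of 6 keratin genes from the hair shaft, hair sheath and stratified epithelial classes. Points are the 2 libraries of each of 8 groups and bars the group mean. Grey is DMSO, red A-485 and blue TSA. Krt12 and Krt73 are highest in zygotes, Krt28 is near 0 in zygotes and in all A-485 groups, and Krt84 is above 36 FPKM in every library.

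The effect of CBP/p300 inhibition was asked first in zygotes collected while A-485 was present. No keratin gene of 17 tested changed by edgeR, where 0.00548% of all genes were called higher and 0.0657% lower. DESeq2 called none either, and none had an unadjusted p under 0.05. Krt8 was at 3.21 and 3.41 FPKM in DMSO and 1.67 and 3.27 in A-485 zygotes, Krt12 at 7.22 and 7.51 and at 7.59 and 7.10, and Krt73 at 5.68 and 6.85 and at 5.85 and 6.27. The levels overlapped in each of these genes.

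At the early 2-cell stage, both members of the Krt8 and Krt18 pair were lower in A-485 embryos. Krt18 was at 2.44 and 5.77 FPKM in DMSO (65 and 157 counts) and at 0.36 and 0.57 under A-485 (10 and 17 counts). Krt8 was at 2.03 and 2.95 FPKM in DMSO and at 0.42 and 0.23 under A-485. Every A-485 library was below every DMSO library for both genes. The log2 changes were -3.10 ± 0.55 for Krt18 (8.57-fold, adjusted p = 0.00212) and -2.87 ± 0.52 for Krt8 (7.30-fold, adjusted p = 0.0026). With each library left out in turn both calls stayed, with log2 changes between -3.58 and -2.38 for Krt18, the smallest without DMSO replicate 2, and between -3.38 and -2.48 for Krt8, the smallest without A-485 replicate 2. Reads of Krt8 are shared in part with near-identical sequence elsewhere, and RSEM's own SD of its count reached 0.0858 of the count.

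These were the 2 keratin genes called of 23 tested (8.70%), where 7.9% of all genes were called lower and 0.402% higher. None was called higher by edgeR or by DESeq2, and 4 of the 23 had an unadjusted p under 0.05. That share of called members lies near the background of all genes. The keratin median was -0.59 against 0.00 over all genes tested. Krt28 had 32 and 23 counts in DMSO and 0 and 0 under A-485. This is at least 9.67-fold lower against a floor of 3 counts per library, with an adjusted p of 0.00732. Krt10, a keratin of the differentiating epidermis, was at 0.93 and 0.67 FPKM in DMSO and at 0.02 and 0.11 under A-485 (log2 difference -3.46 ± 0.98, adjusted p = 0.0379). Both stayed below a mean of 1 FPKM in either group and so were not called. The RNA of Krt12 and Krt73 was at 4.67 and 4.89 and at 1.68 and 2.12 FPKM under A-485, within or near the DMSO values (log2 differences 0.19 ± 0.29 and -0.06 ± 0.35).

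**Figure D3:**
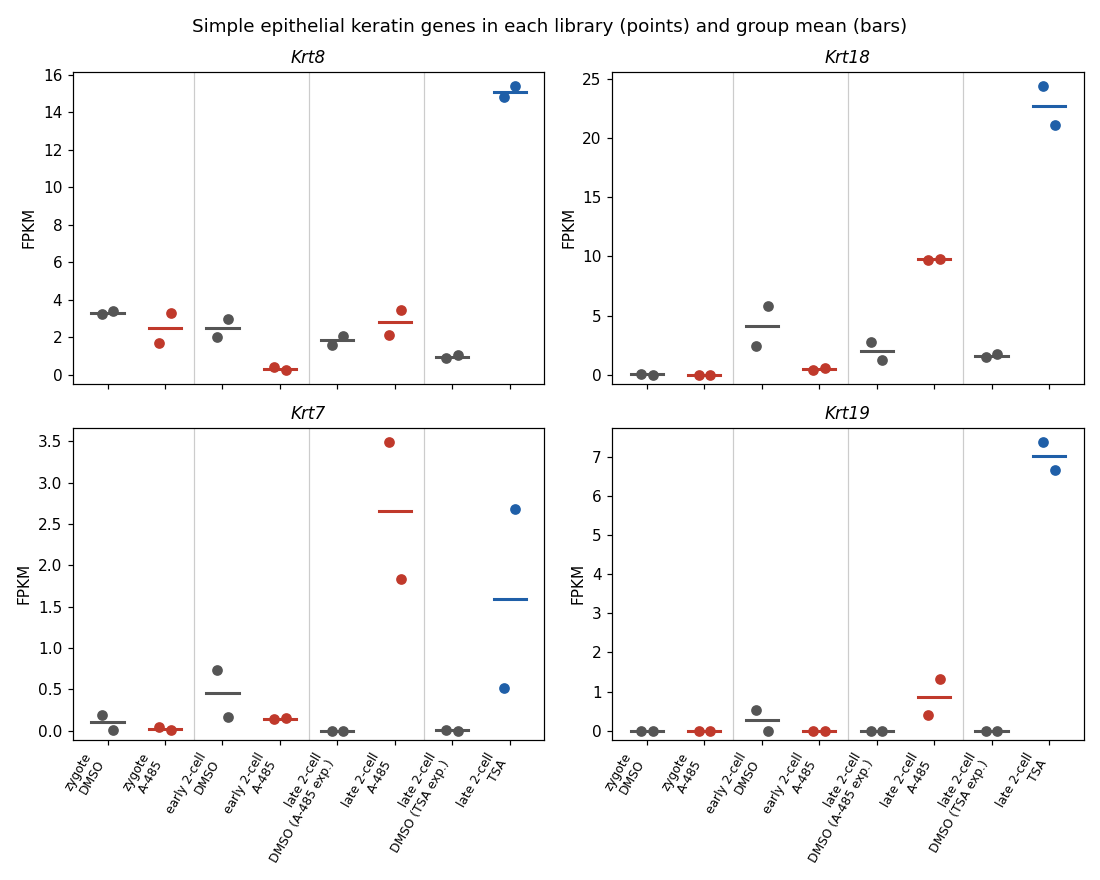
FPKM (linear axes) of the 4 embryonic keratin genes in the 2 libraries of each of 8 groups (points) with the group mean (bars); grey is DMSO, red A-485, blue TSA. Krt8 and Krt18 drop under A-485 at the early 2-cell stage, Krt18 is at 9.70 and 9.79 FPKM in late 2-cell embryos after A-485, and TSA libraries hold the highest Krt8, Krt18 and Krt19 levels.

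In late 2-cell embryos, after A-485 had been washed off, the direction for Krt18 was the other way. Krt18 was at 2.74 and 1.26 FPKM in DMSO and at 9.70 and 9.79 in embryos that had been in A-485, a log2 change of 2.05 ± 0.46 (4.15-fold, adjusted p = 0.00389). Without DMSO replicate 1 the change was 2.81 and without DMSO replicate 2 it was 1.61, and the call stayed in both. Krt7 had no count in either DMSO library and 117 and 100 counts in the A-485 group (3.49 and 1.83 FPKM), at least 47.7-fold higher (adjusted p = 2e-05). Krt19 also had no count in DMSO, and 7 and 27 counts in the A-485 group (0.39 and 1.33 FPKM). This is at least 7.18-fold higher with an adjusted p of 0.0205, but the mean of under 1 FPKM left it uncalled. Krt8 was at 1.58 and 2.07 FPKM in DMSO and at 2.13 and 3.45 in the A-485 group, and its log2 difference of 0.42 ± 0.51 did not pass (adjusted p = 0.546). Krt18 thus stood at 4.55 and 2.84 times the FPKM of Krt8, against 1.73 and 0.609 times in DMSO.

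In all, 5 of 27 keratin genes tested rose and 1 fell (22.2%), where 10.5% of all genes were called higher and 16.8% lower. The keratin median was 1.67 against 0.28 over all genes tested. Krt7, Krt15, Krt19 and Krt26 had no DMSO count and were tested only through their A-485 counts, which raises this median. It is therefore not read as a shift of the family. Krt25, an inner root sheath keratin, went from 0.22 and 0.06 FPKM to 2.22 and 1.09 (log2 3.30 ± 0.94, adjusted p = 0.0161). Krt222, a divergent family member, went from 0.45 and 0.08 to 0.77 and 2.13 FPKM (2.95 ± 0.96, adjusted p = 0.0301). Krt15, a keratin of epidermal basal and stem cells, had no count in DMSO and 8 and 17 counts in the A-485 group, at least 5.35-fold higher (adjusted p = 0.0401). These 3 calls rest on few reads. Krt15 lost its call without DMSO replicate 1 (adjusted p = 0.0982), DMSO replicate 2 (0.09) or A-485 replicate 1 (0.068), and could not be tested without A-485 replicate 2. Krt25 lost it without DMSO replicate 2 (0.0583) or A-485 replicate 1 (0.175), and Krt222 without DMSO replicate 2 (0.0999) or A-485 replicate 2 (0.335). Mitochondrial RNA took 5.43% and 5.35% of counts in the A-485 libraries and 2.45% and 2.35% in DMSO. Scaled to it, the median of expressed genes moved from 0.02 to -0.96, Krt7 was the 1 keratin still called higher, and Krt18 was at 1.10 (adjusted p = 0.0796).

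Krt28 was the 1 keratin gene called lower at this stage, and it stayed lower under every alternative run. It had 52 and 42 counts in DMSO (1.58 and 1.53 FPKM) and 0 and 1 in the A-485 group (0 and 0.05 FPKM), a ratio of 71.5 (95% counting interval 12.5 to 2855; adjusted p = 0.00269). Thus in the A-485 series its RNA was at 0 or 1 count in all 6 treated libraries, zygotes included. Its chromosome 11 neighbours Krt25, Krt26 and Krt27 are inner root sheath keratins like Krt28. They had too few counts in DMSO for a fall to be seen (11 over both libraries for Krt25). Krt26 had 0 and 0 counts in DMSO and 14 and 17 after A-485, and Krt27 0 and 1 against 7 and 15.

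Whether the A-485 effect differed between stages was tested as the difference of the 2 differences over 8 libraries. It was higher at the late than at the early 2-cell stage for 5 of 30 keratin genes tested and lower for none (16.7%), where 7.6% of all genes were called higher and 7.38% lower. DESeq2 gave the same counts, and 9 of the 30 had an unadjusted p under 0.05. The change in effect was 5.24 ± 0.75 on the log2 scale for Krt18 (adjusted p = 8.35e-06) and 3.37 ± 0.79 for Krt8 (adjusted p = 0.00271). These and Krt7 (adjusted p = 2.25e-05, with late DMSO at 0 counts) kept their calls in all 16 alternatives run. Krt25 (3.97 ± 1.36, adjusted p = 0.0401) and Krt222 (4.34 ± 1.44, adjusted p = 0.0338) kept theirs in 9 and 8. For Krt28 no difference between stages was called (1.86 ± 1.78, adjusted p = 0.547).

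TSA raised all 4 embryonic keratins in late 2-cell embryos. Krt18 was at 1.47 and 1.73 FPKM in DMSO and 24.4 and 21.1 under TSA (log2 3.47 ± 0.22, 11.1-fold, adjusted p = 4.52e-07). Krt8 was at 0.87 and 1.05 FPKM in DMSO and 14.8 and 15.4 under TSA (3.61 ± 0.23, 12.2-fold, adjusted p = 4.33e-07). The groups were far apart in both genes, and leaving out any 1 library moved neither value outside 3.36 to 3.75. The FPKM ratio of Krt18 to Krt8 was 1.69 and 1.65 in DMSO and 1.65 and 1.37 under TSA. Krt19 had no count in DMSO and 107 and 104 counts under TSA (7.37 and 6.65 FPKM), at least 36.8-fold higher (adjusted p = 1.18e-05). Krt7 had 1 and 0 counts in DMSO and 24 and 66 under TSA (0.51 and 2.68 FPKM), a ratio of 94.2 (95% counting interval 16.5 to 3763; adjusted p = 0.000789). Without TSA replicate 2 the Krt7 change was 5.39 (adjusted p = 0.021) and its mean fell under 1 FPKM, so it was no longer called.

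Over all 31 keratin genes tested, 7 rose and none fell (22.6%), where 13.8% of all genes were called higher and 13.9% lower. DESeq2 also called none lower, and 11 of the 31 had an unadjusted p under 0.05. The keratin median was 1.38 against 0.13 over all genes tested. Krt19, Krt7 and Krt27 had almost no DMSO counts and were tested through their TSA counts, which raises this median. It is therefore not read as a shift of the family. Besides the embryonic keratins, the genes called higher were Krt25, from 0.12 and 0.09 to 3.22 and 1.92 FPKM (4.20 ± 0.55, adjusted p = 0.0001), Krt27 and Krt10. Krt27 had 0 and 1 counts in DMSO and 38.3 and 39 under TSA, a ratio of 80.6 (95% counting interval 14.1 to 3225; adjusted p = 0.00068). Krt10 went from 0.88 and 0.84 to 2.12 and 1.68 FPKM (1.76 ± 0.49, adjusted p = 0.0138). The Krt10 call was lost without DMSO replicate 2 (1.35, adjusted p = 0.0575) or TSA replicate 1 (1.65, adjusted p = 0.0675). Krt26 had 3 and 1 counts in DMSO and 22 and 45 under TSA (adjusted p = 0.00373), with a mean under 1 FPKM. Of the 16 hair shaft keratins, 2 to 5 had enough counts to be tested in a treatment comparison, and none of these was called by edgeR or by DESeq2. The 1 with an unadjusted p under 0.05 was Krt81 under TSA, with 1 and 0 counts in DMSO and 8 and 13 under TSA, a ratio of 22.0 (95% counting interval 3.54 to 909; adjusted p = 0.0592). Krt28 was at 1.70 and 1.07 FPKM in DMSO and 2.35 and 1.94 under TSA (0.27 ± 0.40, adjusted p = 0.641).

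The TSA and A-485 effects on late 2-cell embryos come from separate experiments with separate controls, in different treatment windows. The TSA effect was higher for 3 of 33 keratin genes and lower for none (9.09%), where 10.8% of all genes were called higher and 2.7% lower. DESeq2 gave the same counts, and 5 of the 33 had an unadjusted p under 0.05. The difference was 3.30 ± 0.48 for Krt8 (adjusted p = 6.96e-05) and 6.29 ± 1.18 for Krt28 (adjusted p = 0.000869). For Krt18 it was 1.53 ± 0.48 (adjusted p = 0.0358), and this call was lost without any 1 of 7 of the 8 libraries, falling to 0.80 (adjusted p = 0.281) without late 2-cell DMSO replicate 1 of the A-485 experiment. It was kept, at 2.00, without replicate 2 of that group. For Krt7, with 1 count over both DMSO groups, the fitted difference of -3.93 ± 2.50 depends on the prior count and did not pass (adjusted p = 0.34). For Krt19, with no count in either DMSO group, the fitted difference had no usable error and was not called.

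**Figure D4:**
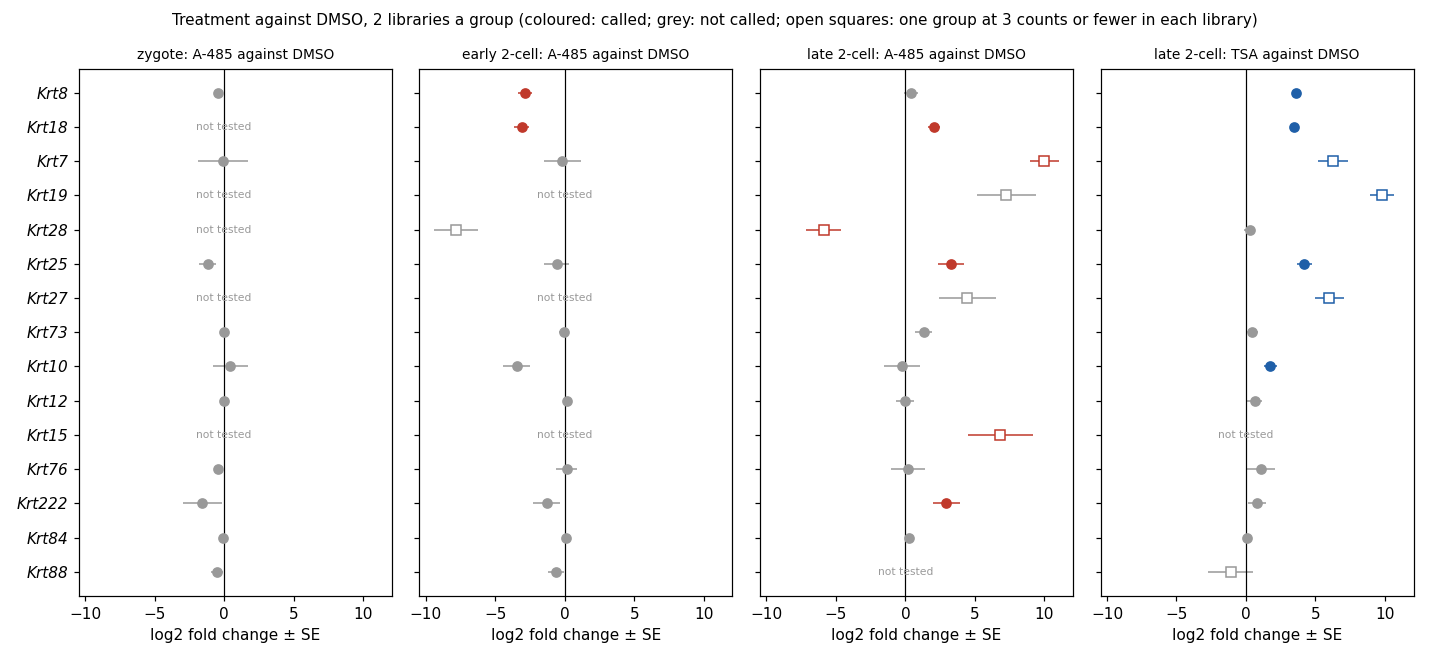
Log2 fold change with SE (edgeR) of 15 keratin genes in the 4 comparisons of treatment with DMSO, 2 libraries a group; coloured symbols were called, grey ones were not, and open squares have 3 counts or fewer in every library of one group, so that the fitted value depends on a prior count. Krt8 and Krt18 lie at -2.87 and -3.10 in early 2-cell A-485 embryos and at 3.61 and 3.47 under TSA, and Krt28 is negative in both 2-cell A-485 comparisons and at 0.27 under TSA.

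Markers of other cell types were read beside these changes, and in several lists 1 gene carried most of the sum. The 11 keratinocyte markers other than keratins summed to 6.09 to 8.13 FPKM in DMSO and 21.2 to 26.3 under TSA, with 1 of 11 against 2 to 3 of 11 at 1 FPKM or more. Sfn made up 7.97 and 5.85 of this in DMSO and 14.8 and 20.8 under TSA. Lor and Lce1a1, which encode cornified envelope proteins, were at 0 both in DMSO and under TSA. Calm4, Ivl, Krtdap and Sprr1b were at 0 in DMSO, and each had counts in at least 1 TSA library. After A-485 the same list summed to 3.55 to 4.76 in late 2-cell embryos against 7.81 to 12.9 in DMSO, with Sfn at 3.15 and 2.68 against 7.77 and 12.7, and with Lor, Ivl, Krtdap and 4 others at 0. The 10 cumulus cell markers summed to 12.5 to 14.2 FPKM in DMSO and 4.62 to 5.46 under TSA. This lower sum was mostly that of Amhr2, at 11.02 and 12.68 in DMSO and 2.50 and 2.07 under TSA, while Has2 (0.05 and 0.11 against 0.34 and 0.25), Grem1 (0.02 and 0.02 against 0.31 and 0.26) and Ptx3 (0 and 0 against 0.55 and 0.32) were higher under TSA. After A-485 the cumulus list summed to 4.69 against 8.64 to 12.6 in DMSO. Amhr2 was again lower (6.95 and 10.7 in DMSO, 0.65 and 0.04 after A-485), and Has2 (0.17 and 0.19 against 1.13 and 1.03) and Grem1 (0 and 0 against 1.50 and 1.79) were higher. The 7 fibroblast markers summed to 1.09 to 1.98 in DMSO and 9.70 to 10.8 under TSA, spread over Pdgfra, Thy1 and Col1a1, with Dcn and Lum at 0. After A-485 they summed to 14.3 to 16.7 against 0.13 to 0.64 in DMSO, of which Pdgfra alone was 13.9 and 15.9, with Col1a2, Dcn and Lum at 0. The 6 sperm markers summed to 1.99 to 3.21 in DMSO and 4.65 to 6.24 under TSA, and to 1.25 to 2.37 in DMSO and 2.14 to 3.09 after A-485. The part of these genes in the keratin results was not tested.

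Genes of the junctions and linkers that keratin filaments attach to were followed as a list of 19 desmosome and plakin genes. The shares of all genes called were 0.402% higher and 7.9% lower under A-485 at the early 2-cell stage, 10.5% and 16.8% after wash-off, and 13.8% and 13.9% under TSA. Under A-485 at the early 2-cell stage 1 of 14 tested rose and 2 fell (median -0.23). Plec, which links intermediate filaments to adhesion sites, was at 5.91 and 5.44 FPKM in DMSO and 0.82 and 1.23 under A-485 (log2 -2.58 ± 0.13, adjusted p = 3.81e-08), and Jup, plakoglobin, at 5.22 and 6.68 against 3.53 and 2.56 (-1.11 ± 0.27, adjusted p = 0.0178). After wash-off, 2 of 15 rose and 3 fell (median 0.56). The desmosomal plaque gene Dsp rose from 0.77 and 0.55 to 2.20 and 2.67 FPKM (2.24 ± 0.31, adjusted p = 0.000114), while Plec was still lower (-2.27 ± 0.22, adjusted p = 5.48e-06). Under TSA 7 of 18 were called, each higher (median 2.64, with 13 at an unadjusted p under 0.05), where DMSO and TSA values of Dsp were 0.49 and 0.58 and 5.55 and 6.28 FPKM (3.16 ± 0.17, adjusted p = 1.32e-07), and those of Evpl, envoplakin, 0.38 and 0.32 and 6.12 and 6.64 (3.83 ± 0.20, adjusted p = 1.05e-07).

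The other intermediate filament genes, 16 in all, were called as follows, where under A-485 at the early 2-cell stage 7.9% of all genes were called lower, and 10.5% after wash-off and 13.8% under TSA were called higher. At the early 2-cell stage under A-485 2 of 16 tested fell (4 at an unadjusted p under 0.05; median 0.08). After wash-off 6 of 15 rose (10 at an unadjusted p under 0.05; median 1.06), and under TSA 7 of 15 rose (12 at an unadjusted p under 0.05; median 1.07). No call was in the other direction in any of these 3 comparisons. Nes, nestin, went from 9.25 and 9.24 to 2.66 and 2.25 FPKM under A-485 at the early 2-cell stage (-2.77 ± 0.19, adjusted p = 6.2e-07). Vim, vimentin, went from 0.37 and 0.49 to 7.56 and 3.55 after wash-off (3.60 ± 0.55, adjusted p = 0.000274). Nefm, a neurofilament gene, went from 0.23 and 0.42 to 21.1 and 19.5 under TSA (5.62 ± 0.24, adjusted p = 2.42e-08). The medians over all genes tested in these comparisons are those given above, and no list was set against other genes by a test.

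Of 22 transcription factors known from trophectoderm or epidermis, 6 of 20 tested were called at the early 2-cell stage under A-485, each lower (median -0.60, with 9 at an unadjusted p under 0.05). Gata2, a trophoblast factor, went from 5.26 and 4.88 to 0.71 and 0.81 FPKM (-2.91 ± 0.26, adjusted p = 8.62e-06). Of all genes 7.9% were called lower in that comparison. After wash-off 8 of 21 rose and 6 fell (median 0.71), where 10.5% of all genes were called higher and 16.8% lower. Gata3, a trophectoderm factor, rose from 1.22 and 0.48 to 9.06 and 15.4 FPKM (3.47 ± 0.43, adjusted p = 5.01e-05), and Tead4, a factor needed for trophectoderm, fell from 7.43 and 11.3 to 0.05 and 0.39 (-5.52 ± 0.54, adjusted p = 6.31e-06). Under TSA 10 of 22 rose and 3 fell (median 1.00), where 13.8% of all genes were called higher and 13.9% lower. Grhl3, an epidermal differentiation factor, was at 0 and 0.06 FPKM in DMSO and at 12.4 and 15.3 under TSA (8.42 ± 0.47, adjusted p = 1.69e-07), and Tead4 fell from 12.9 and 13.7 to 3.12 and 4.26 (-2.13 ± 0.18, adjusted p = 3.12e-06).

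Open chromatin at the keratin genes was read from lists of ATAC-seq peaks, each made from 2 replicates together, for embryos late in the 1-cell and early in the 2-cell stage, in DMSO or A-485. No test is possible on such lists. They held 10214 and 7094 peaks at the late 1-cell stage in DMSO and A-485, and 27693 and 13712 at the early 2-cell stage. A peak within 1 kb of an annotated start was listed for none of the 53 keratin genes in the first 3 lists and for 2, Krt8 and Krt18, in early 2-cell A-485 embryos (3.77%). The same was true of 26.2%, 24.7%, 31.7% and 40.9% of 21951 protein-coding genes in the 4 lists. Keratin start sites were therefore seldom listed as open in any condition.

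The Krt8 peak (chr15:102004207-102004750, fold enrichment 7.41, −log10 q 21.2) and the Krt18 peak (chr15:102027842-102028523, 6.54, −log10 q 18.9) overlapped the first exon of each gene and covered the whole start-site windows printed above. Their summits lay 81 bp after and 29 bp before the GENCODE starts of the genes; the printed Krt8 and Krt18 windows are set by RefSeq starts that lie further into the genes. Both genes had less RNA in early 2-cell A-485 embryos than in DMSO, the group in which neither start was listed. Among the 7094 strongest peaks of that list, the number in the shortest one, neither was left. The Krt28 peak (chr11:99373023-99373382, 8.96, −log10 q 32.4) was listed in early 2-cell DMSO embryos alone and lay in intron 2, its summit 1658 bp after the start. Of the 300 bases printed above, 55.7% are soft-masked as repeats in the reference genome. Krt28 RNA was likewise counted in early 2-cell DMSO embryos (32 and 23 counts) and not in A-485 embryos. The early 2-cell list was shorter in A-485 (13712 peaks against 27693 in DMSO), so peaks listed in DMSO alone were not particular to Krt28. A link between this peak and the RNA was not tested. A second Krt28 peak, in intron 5 (chr11:99369862-99370411, 6.19), was listed in late 1-cell DMSO embryos alone. Other peaks inside keratin genes were in Krt23, Krt71 and Krt88, each in late 1-cell DMSO embryos, and none was listed inside Krt84 in any of the 4 lists.

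**Figure D5:**
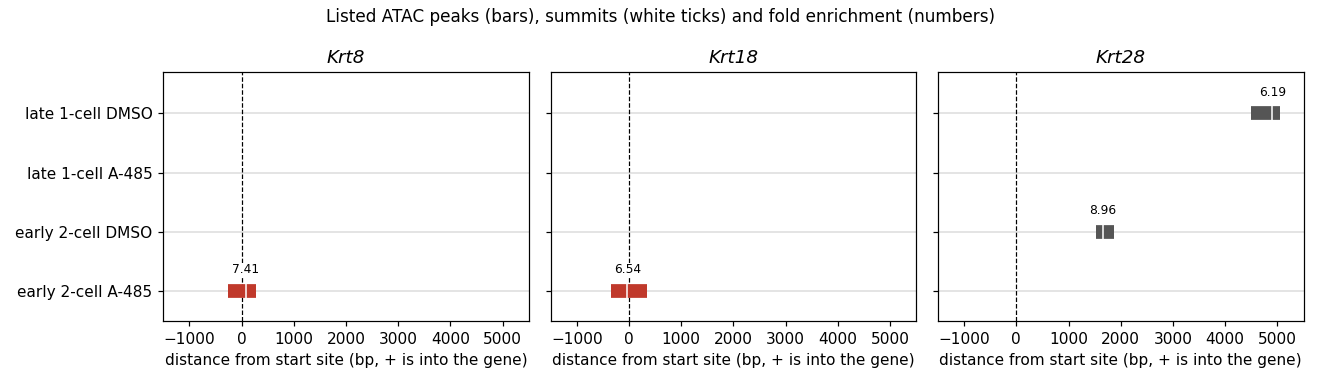
Listed ATAC-seq peaks (bars), their summits (white ticks) and fold enrichment (numbers) at Krt8, Krt18 and Krt28, by distance in bp from the annotated start along the gene, in 4 lists pooled over replicates. Krt8 and Krt18 have a peak at the start in early 2-cell A-485 embryos alone, and the Krt28 peak 1658 bp into the gene is in early 2-cell DMSO embryos alone.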

How the data were processed

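Total RNA-seq of 16 libraries (8 groups of 2) and 4 ATAC-seq peak lists were used. The authors trimmed reads (Trimmomatic 0.39), mapped them to GRCm38 (STAR 2.7.8a) and deposited expected counts per gene and FPKM from RSEM (1.3.1). Per the file headers, effective length and posterior SD of the count were other columns. Their ATAC peaks, pooled over replicates by reproducibility, were deposited with a score, fold enrichment ratio and −log10 q; the peaks' build was read as GRCm38 from the study's pipeline and the annotated starts. Gene IDs were matched to GENCODE M21 (55144 of 55385). Expected counts were rounded and each comparison was fitted on its own libraries with edgeR 4.0.16 (quasi-likelihood, TMM, at least 10 summed counts, Benjamini-Hochberg over all genes tested). Calls needed adjusted p under 0.05, 2-fold and a mean of 1 FPKM. Genes with counts in only a single group were tested through that group, which pulls a median over tested members towards it. Bounds used a floor of 3 counts per library. Depth of 13206163 to 32585987 counts limits precision, and intervals cover counting error only. DESeq2 1.42.0, other scalings and filters, a joint fit, a replicate block and single-library omissions were alternatives. The fit was tested on simulated data, where the share of false calls was above the nominal level. Members and gene lists were chosen with earlier results of these data known. Named genes were the 4 embryonic keratins, every keratin called in any comparison, the 3 other keratins with the highest mean FPKM, and at most 3 called genes per direction of each other list; Krt26, Krt72, Krt80 and other keratins outside that rule were named after their values were seen. The H3K27ac libraries and protein sequences were not analysed here. The result of 1 marker list is not reported here. Comparisons that share DMSO groups are not independent.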

Additional observations from a re-analysis of the deposited data

Results flagged for a closer look

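The A-485 effect differed between early and late 2-cell embryos for 5 of 30 keratin genes by the test of the difference itself (edgeR, 8 libraries). Of all 25141 genes tested, 7.6% were called higher and 7.38% lower. On the log2 scale the late effect minus the early effect was 5.24 for Krt18 (adjusted p = 8.35e-06), 3.37 for Krt8 (adjusted p = 0.00271), 10.36 for Krt7 (adjusted p = 2.25e-05), 3.97 for Krt25 (adjusted p = 0.0401) and 4.34 for Krt222 (adjusted p = 0.0338). The Krt7 value depends on the prior count, since late 2-cell DMSO embryos had no Krt7 count, and is no bound. The Krt25 and Krt222 calls held in only 9 and 8 of 16 alternatives run. Late 2-cell embryos were collected after the drug was washed off, so stage and the presence of the drug cannot be told apart. Labels of the early and late 2-cell libraries are also written differently, and a difference in preparation cannot be told apart from these either.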

How the results depend on the processing

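Of 29 keratin gene calls, 19 held in all alternatives run, and of 379 alternative values 335 stayed called, 44 lost the call and 0 changed sign. The counts of keratin genes called moved by over 1.5 times as follows. With no FPKM cutoff, 4 fell in place of 2 under A-485 at the early 2-cell stage (Krt10 and Krt28 were added) and 3 rose in place of 1 from DMSO zygote to early 2-cell. With mitochondrial scaling, 1 rose in place of 5 in late 2-cell A-485 embryos, 6 fell in place of 2 from zygote to early 2-cell, and 3 in place of 5 differed in A-485 effect between stages; that scaling shifts all genes together. With the replicate number as a block, 3 rose in place of 5 in late 2-cell A-485 embryos (Krt15 and Krt222 were lost). With single libraries left out, where a lone library is assumed to vary like the other groups, the counts ranged from 2 to 4 (late 2-cell A-485, higher), 1 to 2 (zygote to early 2-cell, higher), 2 to 5 (early to late 2-cell, lower) and 3 to 5 (stage difference of the A-485 effect). Start sites with a peak numbered 1 in late 1-cell DMSO (Krt71) and 1 in early 2-cell DMSO (Krt28) within 2.5 kb, and 0 in early 2-cell A-485 among the 7094 strongest peaks. The cause was not tested for the other changes. Same-numbered libraries did not deviate together (correlations -0.041 to 0.0756 over 17333 genes), so the block rests on a shared number only. Depth limits the lowly counted members: Krt15, Krt19, Krt26 and Krt27 had 3 counts or fewer in most DMSO libraries.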
